A study of Mus musculus with 4 samples.

Results

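Sphingosine 1-phosphate (S1P) is a lipid that is abundant in blood and lymph and scarce inside lymphoid tissue, and T cells that carry S1P receptors follow it out of the spleen and lymph nodes. *S1pr1* encodes the receptor by which T cells leave these organs, and *S1pr4* encodes a receptor found mainly on haematopoietic cells. *S1pr5* encodes a receptor that, among lymphocytes, is known from natural killer cells and terminally differentiated CD8+ T cells. *Cd69* encodes a C-type lectin-like protein that is induced by T cell receptor and interferon signals, binds S1PR1 at the cell surface and causes its internalization, so that cells with CD69 are held in the tissue. These 4 genes, of 27998 in the count tables, were described across T cell states and genotypes. They were chosen by their role in T cell egress and by their levels in these same libraries (*S1pr5* being higher and *Cd69* lower in the *Bcl3*-/- cells). Their differences between genotypes and between states are therefore given as a description with no test. Whether the genotype difference itself differed between classes of T cell clusters was tested across all genes. For these 4 genes that test uses the libraries by which they were chosen.

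The cells came from 2 mixed bone marrow chimeras, in which WT (CD45.1) and *Bcl3*-/- (CD45.2) marrow of the C57BL/6 background had together reconstituted sub-lethally irradiated *Rag1*-/- hosts, which lack T and B cells of their own but keep other blood cells. Chimeras were infected with the Armstrong strain of lymphocytic choriomeningitis virus (LCMV), and on day 8 splenic CD8+ T cells that bound the H-2Db tetramer of the viral GP33 epitope were sorted by CD45 allele. Each chimera gave 1 WT and 1 *Bcl3*-/- library of 3′ single-cell RNA, called WT1 and KO1 for chimera 1 and WT2 and KO2 for chimera 2, so n = 2 per genotype and each pair shares an animal. The *Bcl3*-/- genotype was that of every haematopoietic cell of KO marrow origin, not of T cells alone, and no source used here gives the age or sex of the mice. WT1 held 4941 cells, KO1 5366, WT2 8092 and KO2 6494, after barcodes under 500 genes or over 10% mitochondrial counts were set aside. A unique molecular identifier (UMI) marks 1 captured RNA molecule, and the libraries held 21193300, 22922219, 20358780 and 22672343 UMIs in that order. The median cell had 3571, 3620.5, 2019 and 2948 UMIs, WT2 being the shallowest.

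*Bcl3* itself was read at 33.2, 27.6, 108 and 86.6 CPM (the gene's UMIs per 1000000 UMIs of the library or cluster) in WT1, KO1, WT2 and KO2. The deleted part of the gene is not given in the sources used here, and 3′ counts outside it check nothing about the labels. *Cd8a* stood at 554, 496, 515 and 523 CPM in the T cell clusters and *Cd4* at 2.71, 2.57, 2.91 and 1.80 CPM. *Xist*, which is transcribed from the inactive X chromosome of female cells, stood at 33.8 CPM in WT1 and 43.9 in KO1 against 325 in WT2 and 343 in KO2, so that it differed between the chimeras and much less between the genotypes of a chimera. Any pair of libraries shared between 37 and 63 cell barcodes, against 36.0 to 71.3 from the product of their sizes.

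The 3 receptor genes and *Cd69* lie on 4 chromosomes of GRCm38, all on the minus strand. *S1pr1* (ENSMUSG00000045092) spans chr3:115710433-115715072 with 2 exons, *S1pr4* (ENSMUSG00000044199) spans chr10:81497747-81500132 with 1 exon, and *S1pr5* (ENSMUSG00000045087) spans chr9:21242912-21248443 with 3 exons. In each receptor gene a single exon holds the whole coding sequence, of 1146, 1158 and 1200 bases. *Cd69* (ENSMUSG00000030156) spans chr6:129267325-129275436, with 5 exons and 597 coding bases, among genes of other C-type lectin-like receptors. The start of *S1pr5* is overlapped on the opposite strand by *Gm48303* (chr9:21247713-21249606), an unverified transcript that is not a gene of the count tables, and no gene overlaps the other 3.

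Promoter sequence from RefSeq (GRCm38.p6) was matched for *S1pr5* and *S1pr4*, and is shown because these receptors contrast most in the results below: *S1pr5* was concentrated in 1 T cell state and moved with genotype, and *S1pr4* did neither. Each run is the 250 bases before the start, 5′ to 3′ on the minus strand, at chr9:21248444-21248693 and chr10:81500138-81500387. Capitals mark CACCC on either strand (GGGTG when read from the other), the core of the sites of Krüppel-like factors, the family of KLF2.
S1pr5: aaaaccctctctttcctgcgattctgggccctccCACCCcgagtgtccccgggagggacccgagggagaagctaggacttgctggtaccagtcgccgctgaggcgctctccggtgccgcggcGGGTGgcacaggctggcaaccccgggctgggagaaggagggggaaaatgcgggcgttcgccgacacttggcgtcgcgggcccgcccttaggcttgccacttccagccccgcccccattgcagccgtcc
S1pr4: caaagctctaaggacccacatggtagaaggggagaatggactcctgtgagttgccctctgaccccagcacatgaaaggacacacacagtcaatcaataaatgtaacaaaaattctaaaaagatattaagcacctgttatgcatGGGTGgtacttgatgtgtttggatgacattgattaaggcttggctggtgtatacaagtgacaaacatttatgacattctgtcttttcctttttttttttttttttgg
CACCC was found 2 times in the *S1pr5* promoter and 1 time in that of *S1pr4*, and 52.0% of 32851 promoters of this length hold it. CACCTG, an E-box bound by ZEB proteins, was found 1 time in the *S1pr4* promoter and not in that of *S1pr5* (17.2% of promoters). TCACAC, from T-box sites (12.3%), TGANTCA, the AP-1 site (6.75%), and a kappaB site, read as 3 G, any 2 letters, 3 T and 2 C (1.41%), were in neither. All were searched on both strands, and none overlaps another in these letters.

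To see in which T cells the genes were found, clusters were made in each library without the 4 genes and named from marker genes. The classes were terminal-effector-like (*Zeb2*, *Cx3cr1*, *Klrg1* and *Gzma*), cycling (cell cycle genes) and interferon-stimulated (*Ifit1*, *Isg15* and others), besides T cell clusters that met no list and stay unnamed. The last class is called MPEC-gene after the memory precursor genes *Tcf7*, *Il7r*, *Id3* and *Ccr7*. Genes of naive T cells led this class as strongly as those of memory precursors, and *Cd4* was among its leading genes in KO1, so that it is not called a cell type or compared between genotypes. Terminal-effector-like clusters held 8.62%, 14.1%, 12.7% and 16.1% of the cells of WT1, KO1, WT2 and KO2, and unnamed T cell clusters between 56.0% and 59.5%.

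*S1pr5* was concentrated in the terminal-effector-like clusters of every library. It stood there at 111 CPM in WT1, 258 in KO1, 82.2 in WT2 and 223 in KO2. In the unnamed T cell clusters it was at 12.96, 31.6, 11.98 and 24.2 CPM, and in the MPEC-gene clusters at 3.43, 5.82, 2.10 and 11.4 CPM, from 2 to 7 UMIs a library. The terminal-effector-like level was the highest of the 5 classes in 4 of 4 libraries, and the lowest of its values exceeded every value of the other classes. On the scale of log2(CPM + 1) it exceeded that of unnamed clusters by 2.96 ± 0.20 (SD over 4 libraries), a 7.77-fold difference, and that of MPEC-gene clusters by 4.71 ± 0.44. Terminal-effector-like clusters held 40.6%, 52.6%, 49.1% and 58.7% of the *S1pr5* UMIs of T cells, with 6.86%, 11.2%, 11.1% and 14.3% of all their UMIs.

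Further down the order of *S1pr5*, cycling clusters (13.7, 32.0, 10.5 and 42.5 CPM) and unnamed clusters differed by 0.18 ± 0.42 and could not be ordered. Unnamed clusters exceeded the interferon-stimulated ones (3.84, 13.7, 4.96 and 8.67 CPM) by 1.30 ± 0.19 in 4 of 4 libraries. Interferon-stimulated and MPEC-gene clusters differed by 0.46 ± 0.69, within their spread. Within the unnamed class the level differed between clusters. In KO1 it ranged from 14.1 CPM to 95.1 CPM, the highest being a cluster led by *Cx3cr1*, *Klrg1*, *Zeb2* and *Gzma* that did not reach the fold needed for a name, and in WT1 from 6.05 to 23.9 CPM, the highest again in a cluster with *Klrg1* and *Cx3cr1* among its leading genes. The range was 7.76 to 15.7 CPM in WT2 and 15.4 to 42.3 CPM in KO2.

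**Figure D1:**
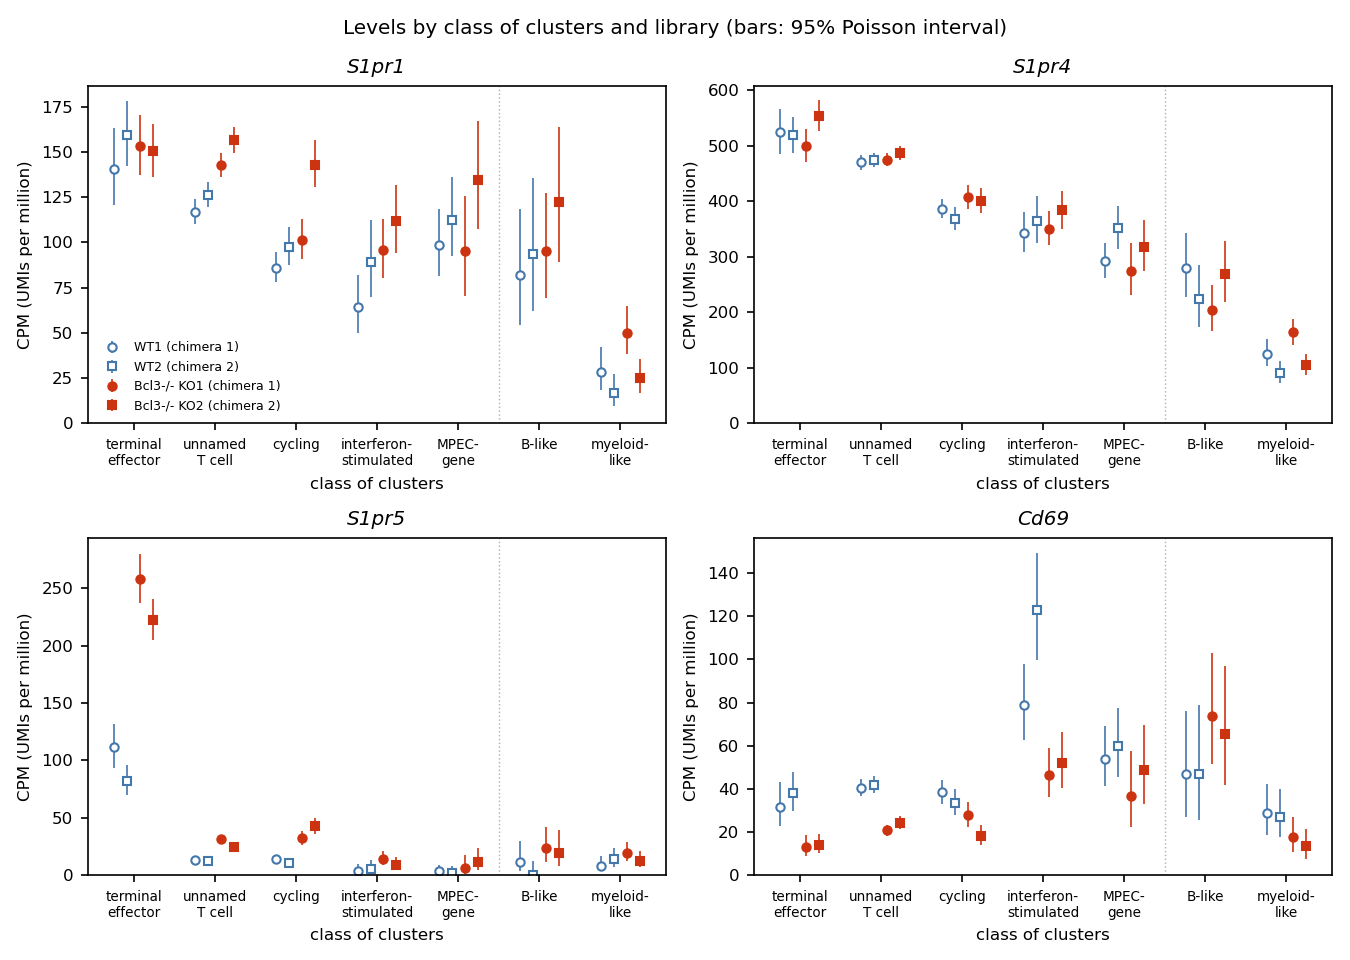
Levels of *S1pr1*, *S1pr4*, *S1pr5* and *Cd69* in CPM (linear vertical axes that start at 0 and differ between panels), by class of clusters (horizontal axis) and library (symbols), with 95% Poisson intervals of the UMI count as bars. *S1pr5* stands apart in terminal-effector-like clusters (82.2 to 258 CPM), *Cd69* is highest among T cell classes in the interferon-stimulated clusters, and the classes of *S1pr1* and *S1pr4* lie closer together.

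Per cell, with every cell thinned to 1000 UMIs, *S1pr5* was seen in 11.3%, 21.5%, 7.54% and 20.6% of terminal-effector-like cells of WT1, KO1, WT2 and KO2 (23.5%, 46.6%, 12.5% and 40.4% before thinning). The share was 1.46%, 2.85%, 1.08% and 2.23% in unnamed clusters. B-like clusters, cells that should lack the gene, gave 0.952%, 2.99%, 0% and 0.787%, where 0 of 111 cells in WT2 allows up to 2.70%. Median depths before thinning were 2982.5, 2910, 1866 and 2585 UMIs in terminal-effector-like cells and 2297, 2901, 1974 and 2637 in B-like cells. Terminal-effector-like shares were far above those of B-like cells in every library. Outside these clusters the share was at or below that of B-like cells in every T cell class of KO1 (B-like, 4 of 134 cells), in the interferon-stimulated and MPEC-gene classes of WT1 and KO2 and, against the limit at a count of 0, in every class of WT2. By this measure *S1pr5* could not be told apart from the background of B-like cells there, at the small number of those cells.

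Free RNA also carried *S1pr5*. Barcodes with few UMIs gave 17.3 CPM in WT1, 58.2 in KO1, 21.1 in WT2 and 72.8 in KO2, a pattern across libraries like that of the cells. From *Lyz2* of myeloid cells, free RNA made up at most 17.4%, 15.2%, 13.99% and 10.2% of the UMIs of T cells, which could give T cells at most 3.02, 8.84, 2.96 and 7.39 CPM of *S1pr5*. From *Cd79a* of B cells the limits were 1.61, 9.26, 2.25 and 5.37 CPM. The *S1pr5* level of the MPEC-gene clusters was below both limits in KO1 and WT2 and above both in WT1 and KO2, from 4 and 7 UMIs. All limits were far below the level of terminal-effector-like clusters, and were also below the levels of unnamed and cycling clusters in every library. B-like clusters stood above the limits too in WT1, KO1 and KO2 (11.7, 23.25 and 19.0 CPM, from 4, 11 and 7 UMIs). They had 0 UMIs in WT2. Myeloid-like clusters were above the limits in every library, and in WT2 (13.55 CPM) above the unnamed clusters. A level above these limits therefore does not by itself set unnamed or cycling clusters apart from background.

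Since *S1pr5* is also a gene of natural killer cells, the identity of the terminal-effector-like cells with an *S1pr5* UMI was checked. There were 100, 354, 129 and 423 such cells in WT1, KO1, WT2 and KO2. A *Cd3* UMI was found in 99.0%, 99.4%, 98.5% and 99.3% of them, and a *Cd8* UMI in 100%, 99.4%, 93.0% and 99.1%. *Ncr1*, which encodes the natural killer receptor NKp46, had a UMI in 0, 1, 0 and 2 of them. The list of 8 natural killer genes, all above 0, summed to 367, 523, 699 and 351 CPM in these clusters, and its most abundant gene was *Klre1* in WT1, KO1 and KO2 (101, 165 and 104 CPM) and *Fcer1g* in WT2 (217 CPM). Among T cell classes this sum was highest in the terminal-effector-like clusters in every library, as *S1pr5* was, and across libraries it was highest in WT2, where *S1pr5* was lowest. The ratio of *S1pr5* shares with and without a *Klre1* UMI in T cells was 3.10, 2.80, 3.79 and 3.07. The part of these genes in the level of *S1pr5* was not tested.

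*S1pr4* was found in all T cell classes with a shallow order. It was at 525, 500, 519 and 554 CPM in terminal-effector-like clusters of WT1, KO1, WT2 and KO2, at 470, 475, 474 and 487 CPM in unnamed clusters and at 293, 276, 351 and 318 CPM in MPEC-gene clusters. The mean order was terminal-effector-like, unnamed, cycling, interferon-stimulated, MPEC-gene, and each step was beyond its SD and had the same direction in 4 of 4 libraries. These steps were 0.14 ± 0.05, 0.29 ± 0.06, 0.12 ± 0.09 and 0.22 ± 0.12 on the log2 scale, and the whole order spanned 0.76 ± 0.14. Myeloid-like clusters were lower (90.7 to 164 CPM) than B-like clusters (205 to 281 CPM) and T cells.

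*S1pr1* had the same leading class but an order less clear than that of *S1pr4*. In terminal-effector-like clusters it was at 141, 153, 159 and 150 CPM in WT1, KO1, WT2 and KO2, and in unnamed clusters at 117, 143, 126 and 156 CPM. The difference of 0.16 ± 0.17 was within its spread, and KO2 had the opposite direction. Unnamed clusters exceeded MPEC-gene clusters (98.6, 95.1, 113 and 135 CPM) by 0.30 ± 0.19, MPEC-gene and cycling clusters differed by 0.05 ± 0.17, within the spread, and cycling clusters exceeded interferon-stimulated ones (64.4, 95.8, 89.3 and 112 CPM) by 0.24 ± 0.16. Interferon-stimulated clusters had the lowest *S1pr1* level in WT1, WT2 and KO2, and MPEC-gene clusters in KO1.

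*Cd69* followed another order, with interferon-stimulated clusters at the top. They had 78.8 CPM in WT1, 46.5 in KO1, 123 in WT2 and 52.0 in KO2, against 54.0, 36.9, 59.9 and 48.7 CPM in MPEC-gene clusters and 40.6, 20.7, 41.9 and 24.2 CPM in unnamed clusters. Both steps had the same direction in 4 of 4 libraries, of 0.50 ± 0.40 and 0.67 ± 0.26 on the log2 scale. Unnamed and cycling clusters (0.10 ± 0.36), and cycling and terminal-effector-like clusters (0.36 ± 0.50), could not be ordered. Terminal-effector-like clusters had 31.6, 13.1, 38.0 and 14.1 CPM, lower than unnamed ones in 4 of 4 libraries, by 0.46 ± 0.27. Interferon-stimulated clusters held 10.5%, 14.7%, 12.7% and 13.95% of the *Cd69* UMIs of T cells, with 5.64%, 7.37%, 4.61% and 6.53% of all their UMIs. B-like clusters also carried *Cd69* (46.8, 74.0, 46.9 and 65.3 CPM, from 14 to 35 UMIs), and there the KO libraries were not the lower ones.

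Between genotypes, over all cells, *S1pr5* was at 17.8 CPM in WT1 and 17.6 in WT2 against 51.9 in KO1 and 50.5 in KO2. The *Bcl3*-/- level was 2.86-fold higher, with a log2 fold change of 1.51 (SE 0.10) in the edgeR fit over all 11566 genes tested. Of all genes tested, 1.07% changed as much or more in either direction. Over 14 other settings the log2 fold change of *S1pr5* was between 1.31 and 1.58. The value of 1.31 is for *Bcl3*-/- class levels at WT class shares, with libraries clustered apart. With libraries clustered together this weighting gave 0.59 and 0.64 in chimeras 1 and 2.

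*Cd69* was at 41.3 CPM in WT1 and 43.6 in WT2 against 24.0 in KO1 and 25.2 in KO2. The WT level was 1.74-fold higher, with a log2 fold change of −0.80 (SE 0.09), and 4.80% of genes changed as much or more. The libraries of each genotype lay close together, and over the other settings the value was between −0.88 and −0.74.

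*S1pr1* was higher in the *Bcl3*-/- libraries by a smaller amount, at 100 and 114 CPM in WT1 and WT2 against 126 and 140 in KO1 and KO2. Its log2 fold change was 0.30 (SE 0.09), which 26.0% of genes matched or exceeded. *S1pr4*, at 411 and 418 CPM in WT1 and WT2 against 427 and 440 in KO1 and KO2, had a log2 fold change of 0.05 (SE 0.09), which 82.4% of genes matched or exceeded. The change of *S1pr4* was smaller than its standard error.

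These levels over all cells join the share of each class with the level inside it. In terminal-effector-like clusters *S1pr5* was higher in the *Bcl3*-/- library of both chimeras, by 2.32-fold in chimera 1 (95% exact interval of the ratio of counts, 1.93 to 2.81, for counting error only) and 2.71-fold in chimera 2 (2.27 to 3.24). The log2 ratio in chimeras 1 and 2 was 1.28 and 1.01 in unnamed clusters and 1.22 and 2.02 in cycling clusters. In KO1 a single unnamed cluster, the one led by *Cx3cr1*, *Klrg1*, *Zeb2* and *Gzma*, held 214 of the 391 *S1pr5* UMIs of the class in 575 of its 3160 cells, and the other clusters lay at 14.1 to 23.5 CPM. In unnamed and cycling clusters the levels were above the free RNA limits, as were those of B-like clusters in WT1, KO1 and KO2. The class-wide shares of cells with a UMI in KO1 and WT2 were not above those of B-like cells. Interferon-stimulated clusters had 4 UMIs in each WT library, too few to place the ratio. With the levels of the *Bcl3*-/- classes weighted by the class shares of the WT library of the same animal, the log2 ratio of *S1pr5* in T cells was 1.25 and 1.38, against 1.55 and 1.54 as measured. WT levels weighted by *Bcl3*-/- shares gave 0.30 and 0.17. Both weightings, and the ratios in unnamed and terminal-effector-like clusters, are for libraries clustered apart and differed when they were clustered together.

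How much of the *S1pr5* difference lay inside classes depended on how the cells were clustered. When the 4 libraries were clustered together, terminal-effector-like clusters took 3.04% of WT1, 20.1% of KO1, 0.680% of WT2 and 12.7% of KO2, and only 28.9% and 4.08% of the cells that WT1 and WT2 had in this class by themselves. In these clusters *S1pr5* was at 225 CPM in WT1 and 198 in KO1, so that the direction turned in chimera 1. It was at 150 CPM in WT2 (18 UMIs from 55 cells) and 258 in KO2. The mean log2 ratio inside the class, here of CPM + 1, fell to 0.30, from 1.32 with libraries clustered apart. On this scale it fell in unnamed clusters to 0.25, from 1.09 (0.36 with coarser clusters, at resolution 0.4). In cycling clusters it was 1.66, from 1.54, on the same scale. The ratio of *Bcl3*-/- levels at WT class shares fell to 0.59 and 0.64, and that of WT levels at *Bcl3*-/- class shares rose to 1.49 and 0.86 in chimeras 1 and 2. The difference over all cells does not use clusters. For *Cd69* the ratios at WT class shares, −0.79 and −0.86 with libraries clustered apart, were −0.68 and −0.62 with libraries clustered together.

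With libraries clustered apart, *Cd69* was lower in the *Bcl3*-/- library of both chimeras in each class compared. The ratio of *Bcl3*-/- to WT was 0.413 (95% exact interval 0.247 to 0.683) and 0.370 (0.245 to 0.553) in terminal-effector-like clusters, which are log2 ratios of −1.28 and −1.43. It was −0.97 and −0.79 in unnamed, −0.47 and −0.89 in cycling and −0.76 and −1.24 in interferon-stimulated clusters, where the direction turned in chimera 1 with libraries clustered together (78.5 CPM in WT1 and 86.5 in KO1, against 106 in WT2 and 87.2 in KO2). *S1pr1* was higher in both chimeras in unnamed (0.29 and 0.31), cycling (0.24 and 0.55) and interferon-stimulated clusters (0.57 and 0.32), the last with an interval that included no difference in chimera 2 (ratio 0.937 to 1.69). In terminal-effector-like clusters its ratios of 0.12 and −0.08 had opposite signs and intervals that included no difference. For *S1pr4* no class compared had a log2 ratio beyond 0.12 in either direction.

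**Figure D2:**
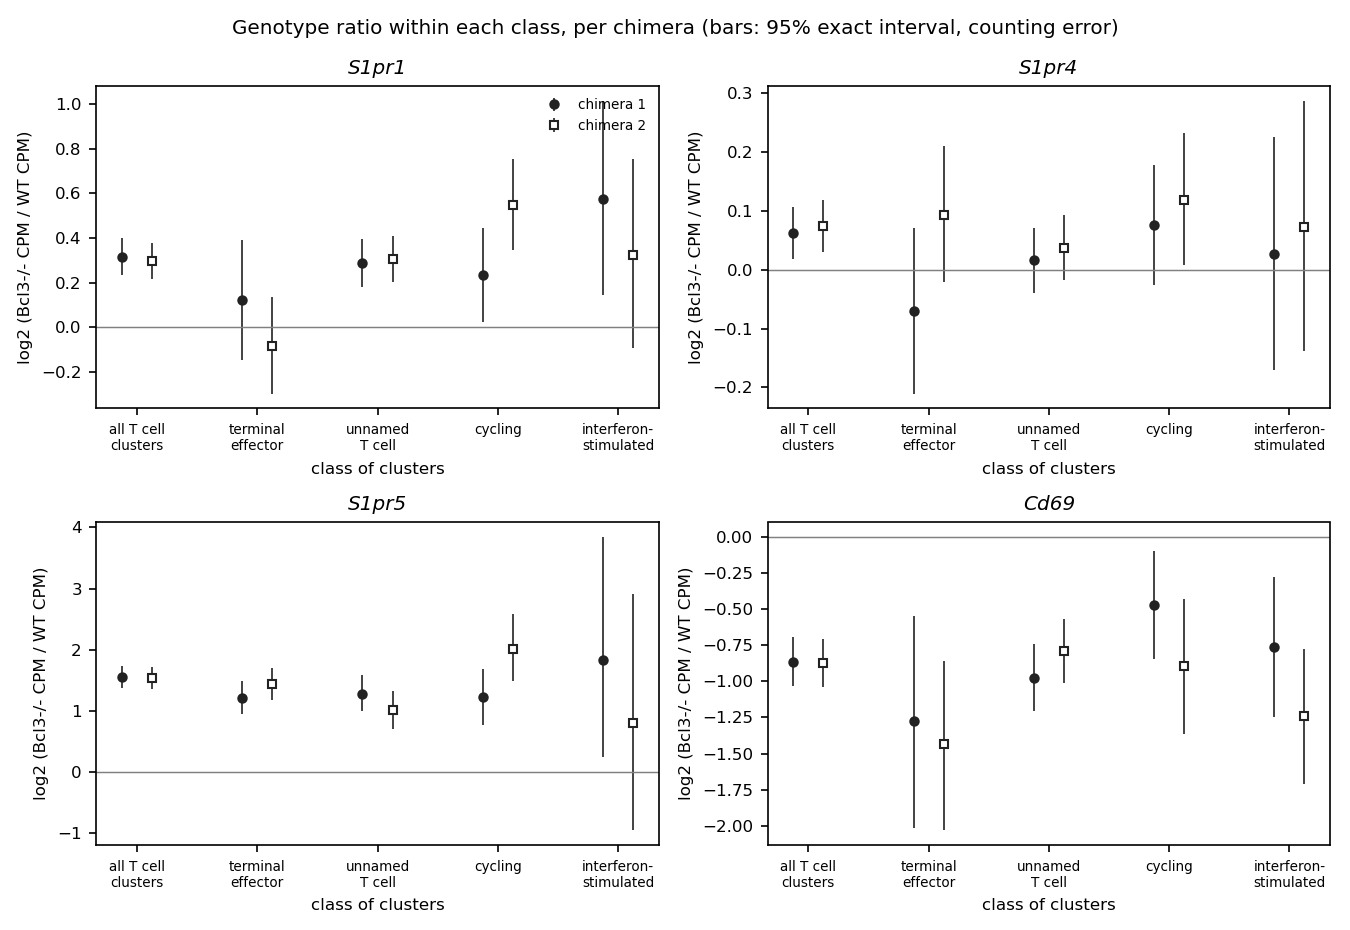
The log2 ratio of *Bcl3*-/- to WT CPM (vertical axis, different range in each panel) by class of clusters (horizontal axis), with a symbol per chimera and bars for the 95% exact interval of the ratio of counts, and a line at no difference. With libraries clustered apart, *S1pr5* lies above the line and *Cd69* below it in both chimeras in every class shown. The *S1pr5* interval in interferon-stimulated clusters of chimera 2 reaches the line. Intervals of *S1pr1* reach it in terminal-effector-like clusters of both chimeras and in interferon-stimulated clusters of chimera 2. *S1pr4* stays within 0.12 of the line.

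Whether the genotype difference itself differed between terminal-effector-like and unnamed clusters was tested across all genes with edgeR's quasi-likelihood test (Benjamini-Hochberg adjustment). It called 85 of 10141 genes, which is 0.838%, of which 15 had the higher ratio in terminal-effector-like clusters and 70 the lower. With libraries clustered together 5 genes were called, 2 higher and 3 lower. None of the 4 genes was called, and 2 (*S1pr1* and *Cd69*) had an unadjusted p under 0.05, as did 809 of all genes tested (7.98%). For *S1pr5* the difference of log2 ratios was 0.17 (95% interval −0.13 to 0.47, edgeR adjusted p = 0.866). It was −0.19 with libraries clustered together, 0.57 with markers at 1.5-fold and 0.61 with coarser clusters. The difference was −0.51 for *Cd69* (−0.96 to −0.06, edgeR adjusted p = 0.562) and −0.02 for *S1pr4* (−0.16 to 0.12, adjusted p = 0.986). For *S1pr1* it was −0.29 (−0.49 to −0.10, edgeR adjusted p = 0.293), and with finer clusters it passed the threshold (adjusted p = 0.0451). It also did with coarser clusters (edgeR adjusted p = 0.0317), where WT1 had no terminal-effector-like cluster, so that the lone WT library of that class is assumed to vary like the other sums. The intervals of *S1pr1* and *Cd69* leave out 0, although neither passed the threshold after adjustment.

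In single T cells thinned to 1000 UMIs, *S1pr5* was found with markers of terminal effectors. Cells with a UMI of *Zeb2*, a repressor of transcription that promotes terminal differentiation, had an *S1pr5* UMI in 12.4%, 17.6%, 9.30% and 15.3% of cases in WT1, KO1, WT2 and KO2, against 1.75%, 4.64%, 1.49% and 4.68% of cells without one. The ratio was 7.08, 3.79, 6.23 and 3.26. For *Klf2*, whose product activates *S1pr1* and *S1pr5*, it was 3.24, 3.83, 3.27 and 3.35, and for *Il7r*, the receptor of memory precursors, 0.187, 0.667, 0.213 and 0.564. The intervals of the shares with and without *Zeb2*, and with and without *Klf2*, did not overlap in any library. Those for *Il7r* overlapped in all 4, with 1, 9, 1 and 5 cells holding both UMIs. Such ratios are a description, since cells of a library share its depth and states.

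*Cd69* and *S1pr5* UMIs met in 2, 4, 4 and 2 cells of WT1, KO1, WT2 and KO2. The ratio of *Cd69* shares with and without *S1pr5* was 0.514, 0.677, 0.691 and 0.238, and counts this small leave wide intervals (0.238% to 6.90% around a share of 1.961% in WT1). With *S1pr1*, the partner that CD69 protein binds, the ratio was 0.963, 1.13, 0.716 and 1.13 and had no common direction. With *Klf2* it was 0.627, 0.858, 0.643 and 0.525, and the intervals of the shares overlapped in KO1. With the interferon-stimulated gene *Ifit3* it was 1.24, 1.86, 1.32 and 2.00, from 8, 5, 24 and 9 cells with both UMIs, and the intervals overlapped in every library, so that a difference was not detectable at this depth.

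**Figure D3:**
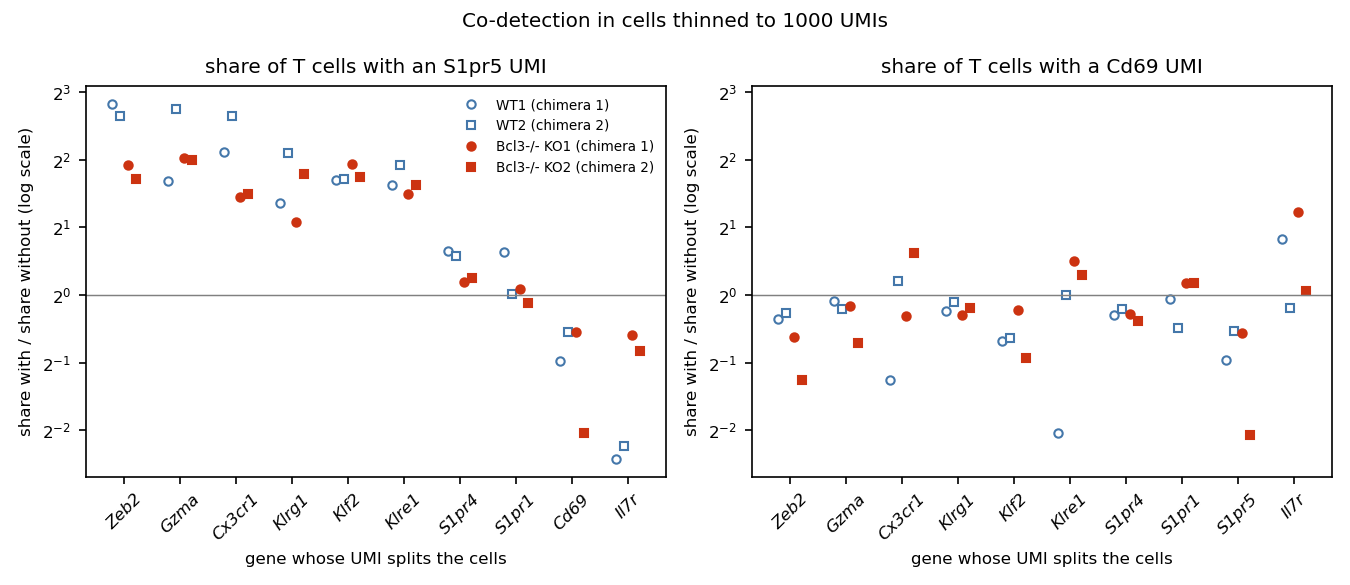
Ratio of the share of T cells with an *S1pr5* UMI (left) or a *Cd69* UMI (right) among cells with a UMI of another gene to the share among cells without one (vertical axis, log scale), for each such gene (horizontal axis) and library (symbols), in cells thinned to 1000 UMIs. *S1pr5* ratios for *Zeb2* (3.26 to 7.08) are above 1 and those for *Il7r* (0.187 to 0.667) below 1 in all 4 libraries, and the *Cd69* ratios for *Klre1* (0.243 to 1.42) and *Cx3cr1* (0.419 to 1.54) lie on both sides of 1.

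The genes most like each of the 4 were ranked by Pearson's r of log2(CPM + 1) over 20 sums (5 classes in 4 libraries) among 4999 genes. The sums share libraries and classes, so that r is a description. For *S1pr5* these were *Cx3cr1* (r = 0.95), *Gzma* (0.95), *Borcs7* (0.93), *Il18rap* (0.92) and *Sike1* (0.92). *Cx3cr1*, a receptor for the chemokine CX3CL1, and *Gzma*, which encodes granzyme A, are markers that were used to name the classes. For *Cd69* they were *Ms4a4c* (0.93), *Psme1* (0.93), *Socs1* (0.90), *Igtp* (0.90) and *Gbp2* (0.90), of which *Psme1* encodes a proteasome activator subunit, *Socs1* a suppressor of cytokine signalling and *Igtp* and *Gbp2* interferon-induced GTPases. For *S1pr1* they were *Ahnak* (0.89), *Neat1* (0.89), *Nfic* (0.89), *Atp1b3* (0.85) and *Rasa3* (0.85). For *S1pr4* they were *Spn* (0.94), *Arl6ip5* (0.93), *Sars* (0.92), *Itgb2* (0.92) and *Myo1f* (0.91), where *Spn* encodes CD43 and *Itgb2* the β2 integrin chain. With levels centred within each library, 3 of the 5 stayed among the first 5 for *S1pr5* and *S1pr1* and 4 of the 5 for *S1pr4* and *Cd69*. *Gzma* then led for *S1pr5* (0.97), followed by *Zeb2* (0.95), *Socs1* led for *Cd69* (0.97), *Fam105a* for *S1pr1* (0.92) and *Spn* for *S1pr4* (0.97).

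The other genes of the pathway were tested between genotypes from 7 lists, 125 genes in all, of which 110 passed the filter on low counts. Across all genes edgeR called 33 of 11566 higher in *Bcl3*-/- (0.285%) and 9 lower (0.0778%). Without WT2 more genes were called lower than higher. With a replicate block for the chimera, in which each *Bcl3*-/- library is compared with the WT library of its animal, 556 were called higher (4.81%) and 560 lower (4.84%). Of the list genes 2 were called without the block, *Zeb2* higher and *Jun* lower, and 24 with it, including both. Levels in the following sentences are TMM-scaled CPM.

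*Zeb2* stood at 46.5 and 49.8 CPM in WT1 and WT2 against 74.7 and 73.4 in KO1 and KO2, a log2 fold change of 0.62 (SE 0.08, edgeR adjusted p = 0.0408; 0.000166 with the block). It lost the call without WT2 (adjusted p = 0.0724), without KO1 (0.0502), without KO2 (0.0708) and with no filter on low counts (0.0542). Within terminal-effector-like clusters *Zeb2* was at 179, 284, 148 and 271 plain CPM in WT1, KO1, WT2 and KO2, in the same order of genotypes. *Jun*, an immediate early gene whose product is part of AP-1, stood at 33.0 and 39.8 CPM against 15.03 and 14.2, a log2 fold change of −1.32 (SE 0.12, edgeR adjusted p = 0.0158), and kept its call in every setting tried. In T cell clusters alone *Jun* was at 21.8, 9.08, 26.4 and 7.20 plain CPM in WT1, KO1, WT2 and KO2.

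Of 16 genes for regulators of *S1pr1*, *S1pr5* and *Cd69*, 1 rose (*Zeb2*) and 0 fell without the block, and 6 rose and 0 fell with it. The median log2 fold change was 0.19, against 0.01 over all genes tested. *Klf2* was at 1155 and 1312 CPM in WT1 and WT2 against 1493 and 1472 in KO1 and KO2, a log2 fold change of 0.27 that missed the threshold (SE 0.12, edgeR adjusted p = 0.347) and passed it with the block (0.0426). *Tbx21*, the gene of T-bet, which drives *S1pr5*, had 0.24 (adjusted p = 0.267 in edgeR and 0.0413 with the block). *Klf3*, *Eomes* and *Bhlhe40* were the others called with the block, named here after their values were seen. *Foxo1*, which acts upstream of *Klf2* (0.04, edgeR adjusted p = 0.909), *Prdm1*, the gene of Blimp-1 (0.19, 0.693), and *Zfp683*, the gene of Hobit (0.19, 0.871, at about 1 CPM), were called in neither fit.

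*Klf2* was highest in the class in which *S1pr5* was highest. In terminal-effector-like clusters *Klf2* was at 1923, 2482, 2124 and 2674 plain CPM in WT1, KO1, WT2 and KO2, and in interferon-stimulated clusters, where *Cd69* was highest, at 624, 915, 1011 and 940. The interferon-stimulated level was below the terminal-effector-like one in every library.

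The remaining receptors and the enzymes that make and break S1P did not pass the test without the block. *S1pr2*, a receptor that retains cells in germinal centres, was at 6.60 and 7.40 CPM in WT1 and WT2 against 9.83 and 8.52 in KO1 and KO2 (log2 fold change 0.39, SE 0.16, edgeR adjusted p = 0.306), and *S1pr3* had 2 to 5 UMIs a library and was not tested. Of 21 genes for synthesis, export, breakdown and carriers of S1P 14 were tested, with 0 calls and a median of 0.13, and with the block *Sgpp1*, an S1P phosphatase, rose and *Cers6*, a ceramide synthase, fell. For *Sgpl1*, the S1P lyase, it was 0.15 with an adjusted p of 0.608 in edgeR. *Sphk1*, an S1P kinase, was at 0.14 to 1.65 CPM (adjusted p = 0.944 in edgeR), and *Spns2*, the S1P exporter, was under 0.3 CPM in all 4 libraries and not tested.

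For receptor signalling and internalization, 20 of 21 genes were tested, with 0 calls and a median of 0.04, and with the block *Plcg1* rose. *Gnai2*, the inhibitory G protein subunit through which these receptors signal, changed by 0.07 on this scale (edgeR adjusted p = 0.821). The kinase gene *Grk2*, listed as *Adrbk1*, whose product internalizes S1PR1 at high S1P, had 0.21 (adjusted p = 0.338 in edgeR). In the list of lymphoid homing, egress and tissue retention 22 of 22 genes were tested, with 0 calls and a median of 0.07. With the block *Cx3cr1* and *Ccr2* rose and *Ccr7*, *Cxcr3*, *Itgb7* and *Rgs1* fell. For *Ccr7*, which guides cells to T cell zones, the log2 fold change was −0.81 (edgeR adjusted p = 0.168 without the block).

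Among 26 immediate early genes tested of 28, the class to which *Cd69* belongs as an early gene of T cell activation, 1 fell (*Jun*) and 0 rose without the block, with a median of 0.22. With the block 5 rose (*Dusp1*, *Dusp2*, *Ier5*, *Zfp36* and *Zfp36l1*) and 2 fell (*Jun* and *Nfkbia*), so that the list did not move one way. Over all cells, the sum of 10 myeloid genes was 2746 and 2592 plain CPM in WT1 and WT2 against 3696 and 3973 in KO1 and KO2. In T cell clusters alone *Jun* kept its call without the block (log2 fold change −1.57, edgeR adjusted p = 0.0371). With the block these clusters gave 27 called list genes, 16 higher and 11 lower, against 17 and 7 over all cells. Otherwise the part of myeloid cells in these calls was not tested. Of the 16 C-type lectin-like genes that neighbour *Cd69*, 12 were tested, with 0 calls and a median of 0.10, and with the block *Klrc1* and *Klrc2* rose. The direction of *Cd69* was not found among its neighbours that were called. The genes named with the block in this and the preceding paragraphs were picked after their values were seen.

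**Figure D4:**
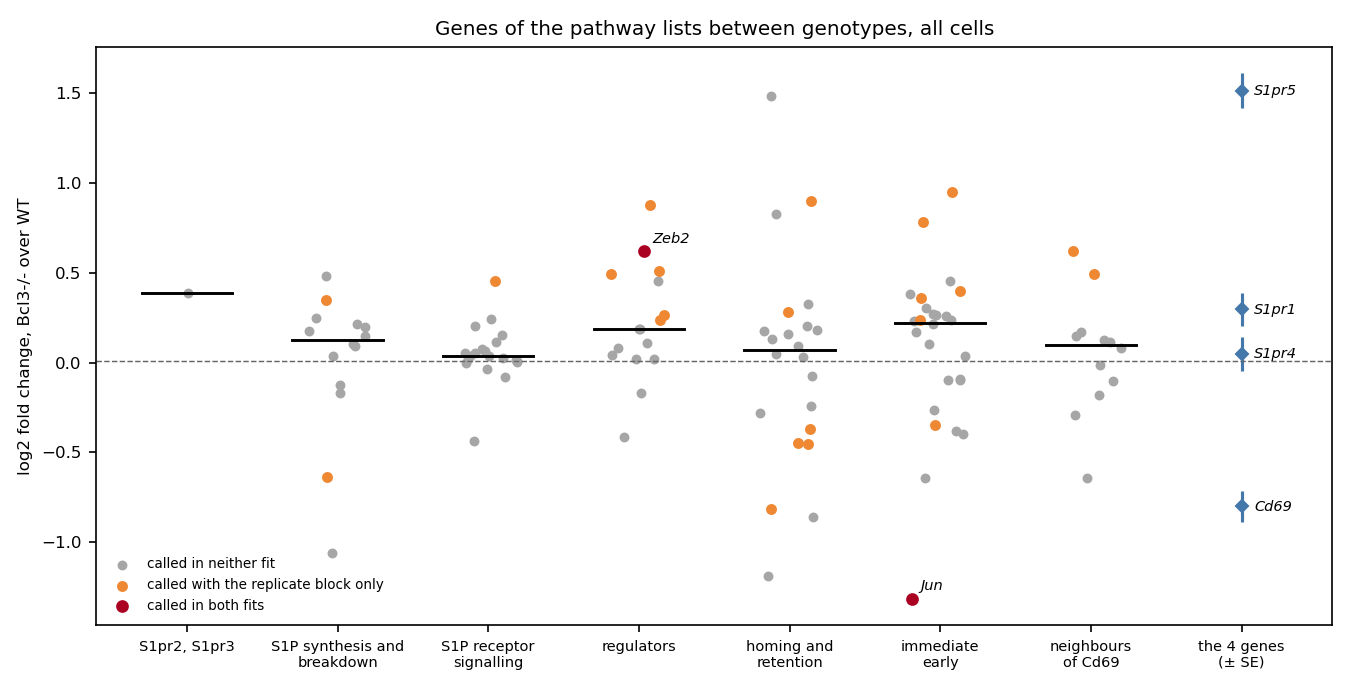
Log2 fold change of *Bcl3*-/- over WT, all cells (vertical axis), for each tested gene of the 7 lists (points, by list on the horizontal axis), with bars for list medians, a dashed line for the median of all genes, colours for the edgeR call, and the 4 genes at the right with their SE. *Zeb2* (0.62) and *Jun* (−1.32) are the genes called in both fits, list medians lie between 0.04 and 0.39, and *S1pr5* (1.51) and *Cd69* (−0.80) lie on opposite sides.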

How the data were processed

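The authors sequenced 10x Genomics 3′ (version 2) libraries and used bcl2fastq 2.17 and Cell Ranger 2.2.0 (mm10, per the labels). The deposited values are raw UMI counts per gene and barcode, with all barcodes listed, neither normalized nor filtered, and 0 columns of samples were left unused. Barcodes under 500 genes or over 10% mitochondrial UMIs were set aside, as in the study's methods. Precision is set by depth: intervals (Poisson, Clopper-Pearson or exact for a ratio of counts, 95%) cover counting error only, and the limit at a count of 0 is 3 counts.

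Each library was clustered with Seurat 5.3.0 (2000 variable genes without the 4 genes described, 15 principal components, resolution 0.8, clusters under 1% left out). Names came from lists of which 3 or more markers were 2-fold above the other cells and in 10% of the cluster, with 1 or more among its 10 leading genes. No doublet caller was run. Cells over 3 times the median UMIs were left out as an alternative. Counts were summed per library, and per class and library, and fitted with edgeR 4.0.16 (TMM, quasi-likelihood test, R 4.3.3, adjusted p threshold 0.05), with DESeq2 1.42.0 as an alternative. P-values between genotypes without the block measure the spread between the 2 libraries of a genotype. With the block they measure the spread that is left once the difference between chimeras is taken out. In the test of terminal-effector-like against unnamed clusters they measure how far the difference between these classes varies between libraries of a genotype. Scripts were tested on simulated data. Equal numbers mark a shared chimera, which pairs the libraries (r = 0.16 between the chimeras' differences of both genotypes over 6863 genes). Coordinates are from GENCODE vM21 (GRCm38), where 27645 of 27998 identifiers were found.

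The 4 genes, the lists and the tests were chosen with earlier results of these data known. Genes named are the 4, the list genes called, 15 named whatever their values (1 of which is not reported here), and for each of the 4 the 5 most like it with a mean of at least 20 CPM. Alternatives were other cell filters, thinning to 1000 UMIs, clusterings, normalizations, fits and leaving out each library.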

Additional observations from a re-analysis of the deposited data

How the results depend on the processing

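The log2 fold changes of the 4 genes between genotypes kept their direction in all 14 other settings each. That of *S1pr5* (1.51) moved by more than its replicate spread to 1.57 with cells of at least 800 genes, 1.46 without cells over 3 times the median UMIs, and between 1.44 and 1.58 leaving out a library. With *Bcl3*-/- class levels at WT class shares it was 1.31 with libraries clustered apart, and 0.59 and 0.64 in chimeras 1 and 2 with libraries clustered together. Of 42 genes called in all, the replicate block for the chimera gave 1116, DESeq2 199, the block with T cell clusters alone 1336, and leaving out 1 library 40 (without WT2) to 228 (without WT1), with 176 without KO1. Of list genes, 2 became 24 with the block, 1 with no filter on low counts, 6 with DESeq2, 27 with the block and T cell clusters alone, and 1 to 6 leaving out a library. The 85 genes whose genotype difference differed between terminal-effector-like and unnamed clusters became 153 with the block, 221 at resolution 0.4, 5 with libraries clustered together, and 45 (without WT2) to 116 leaving out a library. That difference for *S1pr1* (−0.29) passed the threshold at resolutions 0.4 (−0.41) and 1.2 (−0.37). It turned sign for *S1pr4* (−0.0762 to 0.0467 leaving out a library, positive without KO1, and 0.0830 and 0.0173 at resolutions 0.4 and 1.2, 0.0158 with the 4 genes among the clustering genes) and for *S1pr5* (−0.19 with libraries clustered together). For *S1pr5* the difference was between 0.02 (without WT2) and 0.33 (without WT1) leaving out a library, and 0.61 at resolution 0.4. The block changed the call of none of the 4 genes in this test. *S1pr5* between terminal-effector-like and MPEC-gene clusters (4.71) became 5.21 with libraries clustered together and 3.94 with markers at 1.5-fold. Within classes, on the scale of log2(CPM + 1), 141 values stayed within the replicate spread, 16 moved and 3 turned sign from a main value beyond its spread. The 3 were *S1pr4* in unnamed clusters (−0.0207 at resolution 0.4, −0.0268 with libraries clustered together) and *S1pr5* in interferon-stimulated clusters (−0.0323 at resolution 0.4). Main values within their spread also crossed 0. In terminal-effector-like clusters *S1pr1* (0.02) became −0.12 at resolution 0.4, and *S1pr4* (0.01) became −0.14 with libraries clustered together. At resolution 0.4 WT1 had no terminal-effector-like cluster, which leaves 1 WT library in that class. Otherwise the cause was not tested. The block with T cell clusters alone, the WT class shares and the weighting in the clusters of merged libraries were chosen after seeing the data. So were, for the test of terminal-effector-like against unnamed clusters, the 4 genes among the clustering genes and the markers at 1.5-fold. *S1pr5* at or below 3.02 CPM in WT1, 9.26 in KO1, 2.96 in WT2 and 7.39 in KO2 cannot be told apart from free RNA. B-like or myeloid-like clusters reached 11.7 CPM in WT1, 23.25 in KO1, 13.55 in WT2 and 19.0 in KO2, so the background may lie higher. MPEC-gene and interferon-stimulated clusters rest on 2 to 20 *S1pr5* UMIs a library.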
